A study of Drosophila simulans with 22 samples.

Results

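The glycolysis genes followed here are 10 genes named by a list of *D. melanogaster* FlyBase numbers. Of these, 6 of 10 were rows of the deposited table of 8460 genes: *Pfk* (FBgn0003071), *Ald* (FBgn0000064), *Tpi* (FBgn0086355), *Pgk* (FBgn0250906), *Eno* (FBgn0000579) and *ImpL3* (FBgn0001258), the last also called *Ldh*. The other 4, *Pgi*, *Gapdh1*, *Gapdh2* and *Pglym78*, were not analysed here. No other gene of the table had the same reads as any of the 6 in every sample.

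To follow promoter activity through embryogenesis, RAMPAGE profiles of *Drosophila simulans* were generated from 22 samples that cover the time after egg laying in steps of 1 h, the first being 0-1 h and the last 21-22 h. All were whole embryos, pooled by collection, of the genotype w[501], the strain used for the reference genome. No treatment or second strain is part of the series. RAMPAGE sequences cDNAs that reach the 5′ end of their RNA, so that each read marks a transcription start site, and a peak of starts, called a transcription start site cluster (TSC), stands for a promoter. The hours were barcoded when cDNA was made and sequenced from 1 common library, so that no hour is a separate preparation from that point on.

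Glycolysis splits glucose to pyruvate, and fermentation of pyruvate to lactate regenerates the NAD+ that the pathway consumes. In *D. melanogaster*, the transcripts of most of these enzymes are known to increase together in the middle of embryogenesis, under control of the estrogen-related receptor, ahead of the sugar-based growth of the larva. Eggs also carry maternal RNA, which is degraded in the first hours, so that a level early in the series need not reflect transcription in the embryo.

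Levels are in RPM: the number of reads assigned to a gene out of every 1000000 reads of the total used to scale the sample. For genes that total was slightly larger than the sum of reads in TSCs in each sample, with 10752490 against 10630843 reads at 0-1 h. All values came out as whole reads. With 1 sample per hour there is no replicate error, and the scatter of the hours around a smooth curve, a natural spline of hour with 4 degrees of freedom on log2(RPM + 1), was used in its place. Changes were called where the p adjusted by Benjamini-Hochberg over all 8249 genes tested was below 0.05. Only genes that reached 2 RPM in some hour were tested, which all 6 glycolysis genes did. Since whole embryos were sampled, fewer cells of a type and less RNA per cell cannot be told apart.

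Depth was lowest at 12-13 h (325359 reads) and highest at 9-10 h (17332321 reads), around a median of 2879694 reads, so that a single read was worth between 0.0577 and 3.07 RPM. The 12-13 h sample also lay farthest from the fitted curves over all genes, with a median distance of 0.53 on the log2 scale, against 0.20 to 0.41 in the other 21 samples. All genes of the table together took 86.1% of the total reads used for scaling at 0-1 h and 62.2% at 17-18 h. In the latter sample TMM, a scaling that allows for such shifts in composition, had its lowest factor of 0.631. TMM and DESeq2 scaling moved the median change of all genes between 7-8 h and 14-15 h from −0.27 to −0.06 and 0.20. Directions below are relative to total reads, and those called for the glycolysis genes were kept under both.

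*Pfk*, *Ald*, *Tpi*, *Pgk* and *Eno* were present in the first hours, low in the hours that followed and higher again in later embryogenesis, while *ImpL3* was near 0 at the start and higher later. All 6 changed with hour (limma spline test, adjusted p between 2.16e-11 for *Tpi* and 1.64e-04 for *Pgk*). Of all genes tested 92.4% changed with hour, so that this count does not set the 6 apart. All 6 rose from 7-8 h to 14-15 h, a step at which 28.2% of genes rose and 38.8% fell.

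**Figure D1:**
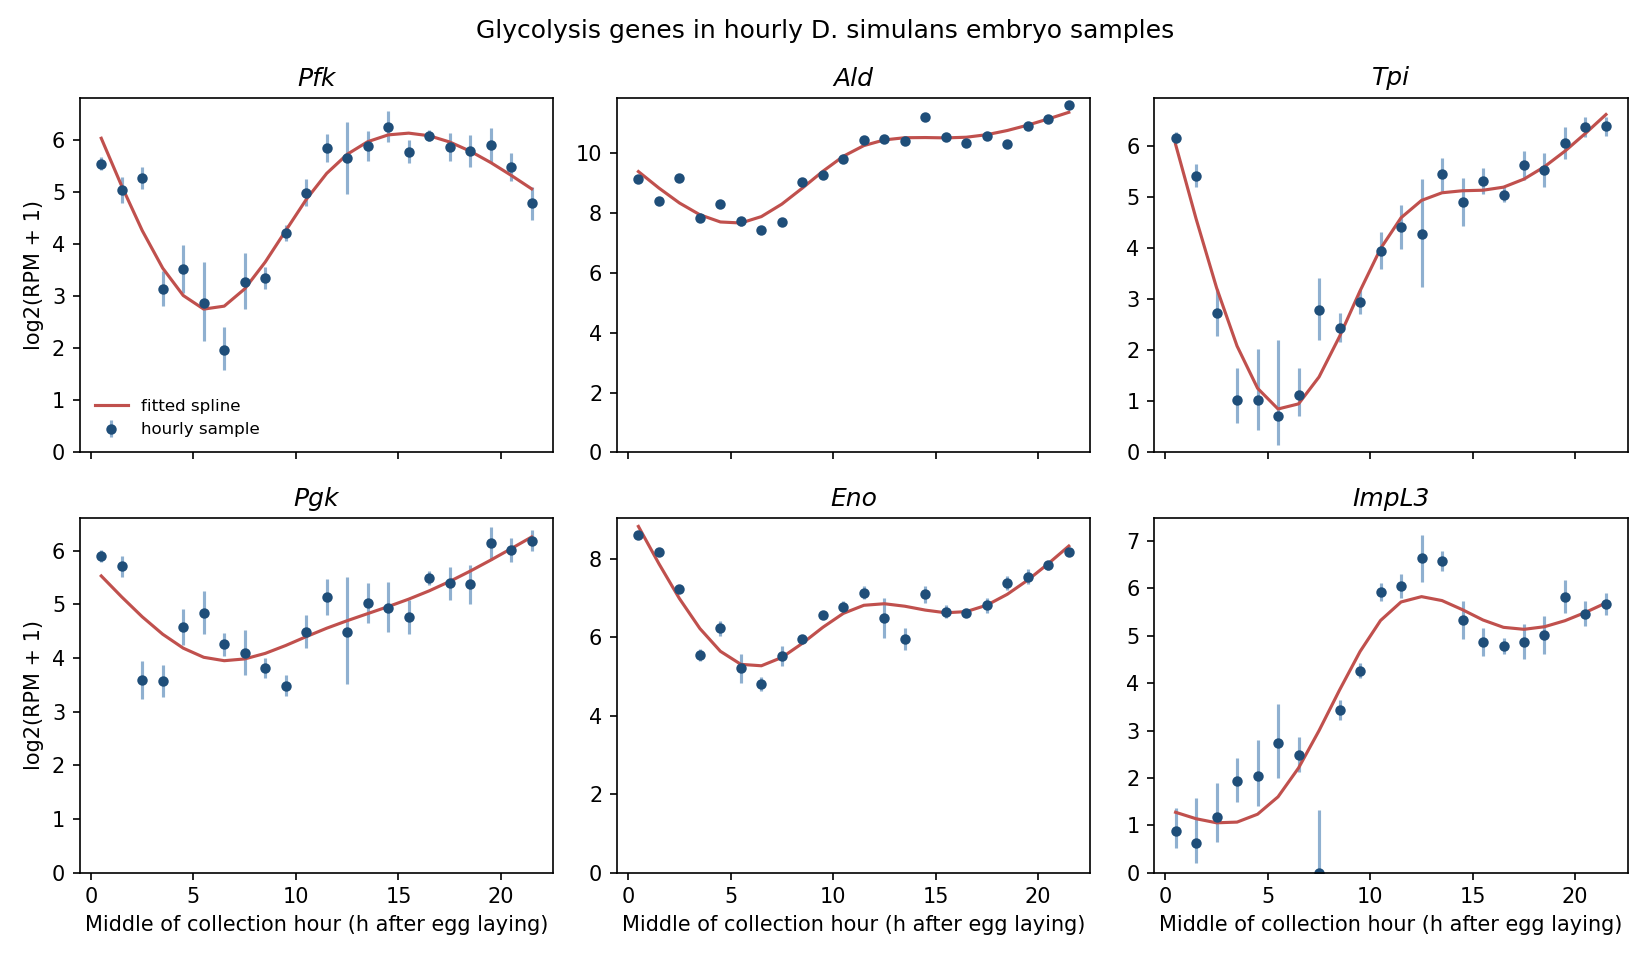
Level of each glycolysis gene on the log2(RPM + 1) scale against the middle of the collection hour, 1 point per sample with its 95% Wilson counting interval, and the fitted spline as a line. *Pfk*, *Ald*, *Tpi*, *Pgk* and *Eno* each have their lowest hour between 3 h and 10 h and stand above it in the first and the last hour. *ImpL3* starts near 0 and is highest at 12-13 h with 98.4 RPM.

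*Pfk* encodes phosphofructokinase, the enzyme of the committed and most tightly regulated step of glycolysis. Its level was 45.5 RPM at 0-1 h, 31.9 at 1-2 h and 37.5 at 2-3 h. It was then 7.83 at 3-4 h, 10.4 at 4-5 h, 6.31 at 5-6 h, 2.93 at 6-7 h, 8.65 at 7-8 h and 9.15 at 8-9 h. These 6 hours lay below all others of the series. From there it was 17.5 at 9-10 h, 30.6 at 10-11 h, 56.0 at 11-12 h, 49.2 at 12-13 h, 57.9 at 13-14 h and 75.1 at 14-15 h, its highest value. The later hours gave 53.6, 66.4, 57.0, 54.1 and 58.3 RPM from 15-16 h to 19-20 h, then 43.7 at 20-21 h and 26.4 at 21-22 h. *Pfk* was the only one of the 6 whose last hour lay below its own first 3 hours. The highest hour exceeded the lowest 25.7-fold.

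*Ald* encodes aldolase, which cleaves the sugar bisphosphate that Pfk makes into triose phosphates. Its level was 562 RPM at 0-1 h, 332 at 1-2 h and 576 at 2-3 h, then 226, 311, 209, 172 and 207 RPM from 3-4 h to 7-8 h. These 5 hours were its lowest. It was 518 at 8-9 h, 612 at 9-10 h, 899 at 10-11 h, 1388 at 11-12 h, 1398 at 12-13 h and 1350.2 at 13-14 h. The 14-15 h sample stood above its neighbours with 2376 RPM, followed by 1464, 1295, 1507 and 1254 RPM from 15-16 h to 18-19 h. The last hours gave 1913, 2266 and 3085 RPM, and each of the hours from 10-11 h on exceeded each of the first 10. At 21-22 h *Ald* was at 5.49 times its level at 0-1 h.

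*Tpi* encodes triose phosphate isomerase, which interconverts the products of aldolase so that both enter the lower part of the pathway. It was at 71.0 RPM at 0-1 h, 41.9 at 1-2 h and 5.62 at 2-3 h, then at 1.03, 1.04, 0.631 and 1.17 RPM from 3-4 h to 6-7 h. The 4 low hours rested on 7, 3, 1 and 10 reads. It was 5.90 at 7-8 h, 4.44 at 8-9 h, 6.69 at 9-10 h, 14.5 at 10-11 h, 20.2 at 11-12 h and 18.4 at 12-13 h. Then followed 42.7, 28.8, 39.0, 32.2, 48.3 and 45.2 RPM from 13-14 h to 18-19 h and 66.0, 81.7 and 82.8 RPM in the last 3 hours. The last hour exceeded the first 1.17-fold. Of the 6 genes, *Tpi* had the widest fitted range, 5.77 on the log2 scale, against a median of 2.82 for all genes.

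*Pgk* encodes phosphoglycerate kinase, which makes ATP in the lower part of the pathway. It was at 58.5 RPM at 0-1 h and 51.3 at 1-2 h, and at 11.0 and 10.9 RPM in the next 2 hours. From 4-5 h to 9-10 h it was at 22.9, 27.8, 18.1, 16.1, 13.1 and 10.2 RPM. Its lowest value was the one at 9-10 h, with a counting interval of 8.76 to 11.8 RPM. That interval overlapped those at 2-3 h (8.44 to 14.4 RPM) and 3-4 h (8.71 to 13.7 RPM), so that its lowest hour is not settled. From 10-11 h to 15-16 h it was at 21.4, 34.2, 21.5, 31.6, 29.7 and 26.1 RPM, and from 16-17 h on at 43.9, 41.1, 40.4, 69.4, 63.9 and 72.0 RPM. Its values varied 7.09-fold between the lowest and the highest hour.

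*Eno* encodes enolase, the enzyme before the last, pyruvate-forming step. Its highest value was its first, 394 RPM at 0-1 h, followed by 289 at 1-2 h and 151 at 2-3 h. It was then at 45.8, 74.6, 36.0, 26.9, 45.2 and 60.8 RPM from 3-4 h to 8-9 h. The minimum at 6-7 h was 14.7-fold below the first hour. From 9-10 h to 14-15 h it was at 93.9, 109, 141, 89.1, 61.4 and 136 RPM, and from 15-16 h to 18-19 h at 100.1, 98.2, 112 and 166 RPM. The last 3 hours gave 187, 228 and 290.0 RPM and the last of these was at 0.735 times the first hour of the series. *Eno* and *Pfk* were the genes whose last hour lay below their first.

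*ImpL3* encodes lactate dehydrogenase, which turns pyruvate into lactate. It was at 0.837, 0.540 and 1.25 RPM in the first 3 hours, on 9, 2 and 6 reads. It was then at 2.81, 3.12, 5.68 and 4.56 RPM from 3-4 h to 6-7 h. The early high level of the other 5 genes was thus absent in *ImpL3*. The 7-8 h sample held 0 of 2544306 reads, which allows up to 1.18 RPM (3 reads), although the hours on either side held 39 and 145 reads. In that sample *Tpi* lay 1.31 above its curve on the log2 scale and *ImpL3* 3.00 below, while the median distance over all genes, 0.31, was within the range of the other hours. From 8-9 h to 13-14 h the level was 9.76, 18.2, 59.9, 65.4, 98.4 and 94.7 RPM. The value at 12-13 h rests on 32 reads, with a counting interval of 69.7 to 139 RPM, and that at 13-14 h on 162 reads. From 14-15 h to 18-19 h it was at 39.3, 28.2, 26.7, 28.2 and 31.5 RPM, then at 55.7, 43.3 and 50.1 RPM. *ImpL3* thus had its highest hours about 12 h to 14 h after egg laying.

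Differences between hours were read from the fitted curves at 1-2 h, 7-8 h, 14-15 h and 21-22 h, with standard errors from the scatter of all 22 hours. From 1-2 h to 7-8 h, 4 of the 6 genes fell and 1 rose, at a step at which 18.4% of all genes fell and 19.8% rose. The largest drop was that of *Tpi*, −3.10 ± 0.39 (log2 change ± SE, limma, adjusted p = 4.44e-07). *Eno* changed by −2.39 ± 0.29 (limma, adjusted p = 2.05e-07), *Pfk* by −1.97 ± 0.32 (limma, adjusted p = 2.39e-05) and *Pgk* by −1.16 ± 0.38 (limma, adjusted p = 0.0163). *Ald* was not called, with −0.54 and an interval of −1.13 to 0.06 (limma, adjusted p = 0.151). *ImpL3* rose by 1.86 ± 0.60 (limma, adjusted p = 0.0149). Its samples at 1-2 h and 7-8 h themselves held 0.540 and 0 RPM, on 2 and 0 reads. The fitted rise thus comes from the hours around them and runs against these samples. The median over the 6 was −1.56, against 0.06 over all genes tested.

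The calls for *Pgk*, *ImpL3* and *Ald* at this step hung on single hours. *Pgk* lost its call without 0-1 h (−0.77, adjusted p = 0.303) and without 1-2 h (−0.92, adjusted p = 0.112). *ImpL3* lost it without 0-1 h (1.28, adjusted p = 0.246), 1-2 h (1.45, adjusted p = 0.102) or 5-6 h (1.46, adjusted p = 0.0511). *Ald* gained one without 1-2 h (−0.83, adjusted p = 0.0442).

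From 7-8 h to 14-15 h every one of the 6 rose. *Tpi* rose most, by 3.65 ± 0.31 (limma, adjusted p = 4.58e-10), followed by *Pfk* with 2.95 ± 0.26 (limma, adjusted p = 7.68e-10). *ImpL3* rose by 2.55 ± 0.48 (limma, adjusted p = 5.76e-05) and *Ald* by 2.22 ± 0.23 (limma, adjusted p = 1.15e-08). The smaller increases were those of *Eno*, 1.21 ± 0.23 (limma, adjusted p = 6.48e-05), and *Pgk*, 0.98 ± 0.30 (limma, adjusted p = 0.00676). The median over the 6 was 2.39, while that over all genes tested was −0.27. These 6 calls were kept in all 22 fits that left out an hour, and in each of the 10 other settings tried. Without the 7-8 h sample, in which *ImpL3* had no read, *ImpL3* rose by 2.01 at this step and by 2.52 at the step before (limma, adjusted p = 7.00e-06 and 1.33e-05).

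**Figure D2:**
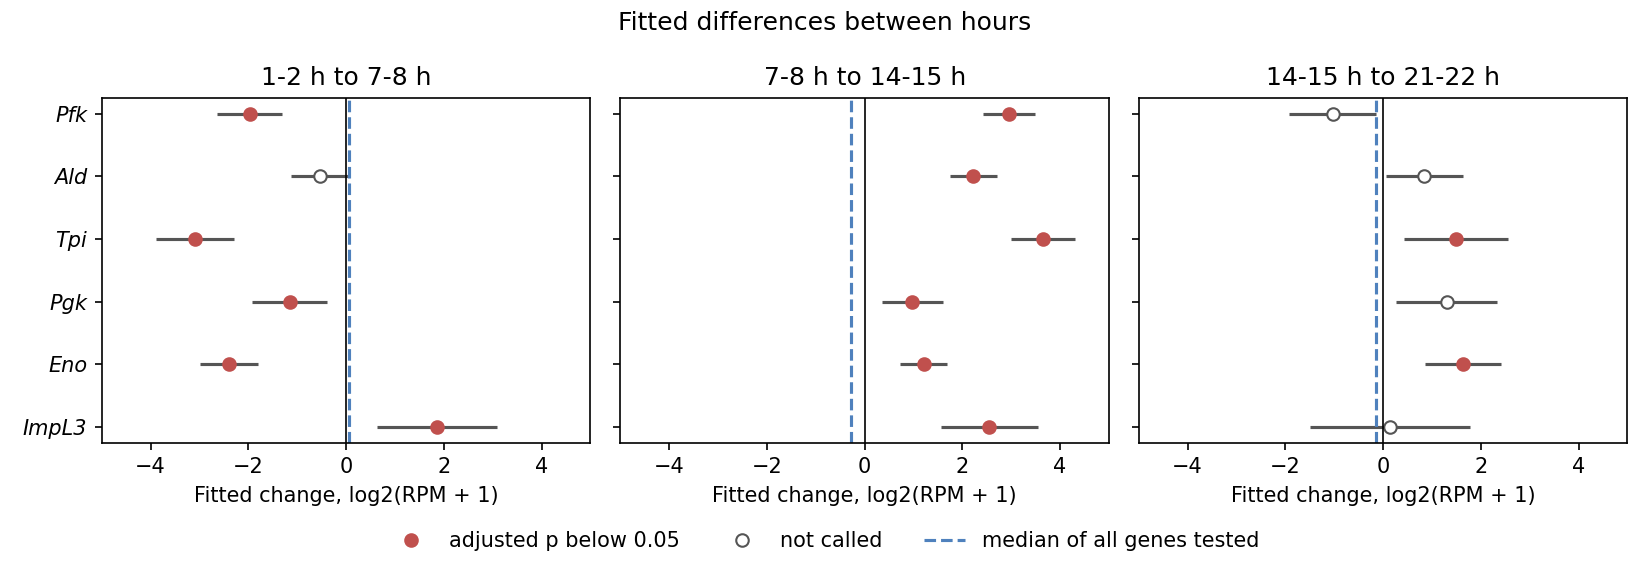
Fitted change of each glycolysis gene between 2 hours on the log2(RPM + 1) scale, with 95% intervals from the limma fit, for the early, middle and late step. Filled points passed an adjusted p of 0.05, and the dashed line is the median of all 8249 genes; in the middle step all 6 points lie right of 0, between 0.98 and 3.65.

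From 14-15 h to 21-22 h, 2 of the 6 genes rose and none fell, at a step at which 6.46% of all genes rose and 9.95% fell. *Eno* rose by 1.63 ± 0.38 (limma, adjusted p = 0.00321). *Tpi* rose by 1.49 ± 0.52 (limma, adjusted p = 0.0481), a call that 16 of the 22 fits without an hour did not make (adjusted p up to 0.103). A stiffer spline with 3 degrees of freedom called neither, with 0.85 for *Eno* and 0.38 for *Tpi*, and called *Pfk* lower, with −1.56 (limma, adjusted p = 0.255, 0.759 and 0.0176). The values that were not called were −1.04 for *Pfk*, 0.84 for *Ald*, 1.30 for *Pgk* and 0.14 for *ImpL3*, whose interval ran from −1.49 to 1.78. With TMM or DESeq2 scaling *Pgk* was called as well, with 1.58 in both (limma, adjusted p = 0.0197 and 0.0168). The same scalings turned the balance over all genes at this step, from 533 higher and 821 lower genes to 720 and 654 with TMM and to 751 and 677 with DESeq2. At the step before, DESeq2 factors gave 2998 higher and 2074 lower genes in place of 2327 and 3204, with the same 6 glycolysis genes called higher.

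The hourly profiles of the 6 genes were compared with each other as a description over 22 hours, which share a library and are ordered in time. Pearson's correlation of log2(RPM + 1) had a median of 0.67 over the 15 pairs, against 0.09 over all pairs of the 8249 genes. The closest pair was *Pfk* and *Tpi* with 0.84, and *Pfk* and *Ald* also reached 0.84. All pairs without *ImpL3* lay between 0.55 and 0.84. *ImpL3* was close to *Ald*, with 0.81, and distant from *Pgk*, 0.32, and *Eno*, 0.14. Many genes outside the pathway had profiles as close. Among the 8248 other genes, the nearest fellow member held rank 10 for *Pgk*, rank 32 for *Pfk*, rank 41 for *Eno* and rank 60 for *Tpi*, but rank 312 for *Ald* and rank 407 for *ImpL3*. The genes outside the list whose profile most resembled the mean of the 6 standardised profiles were FBgn0013995 and FBgn0027580, with correlations of 0.96 and 0.96 over 22 hours.

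**Figure D3:**
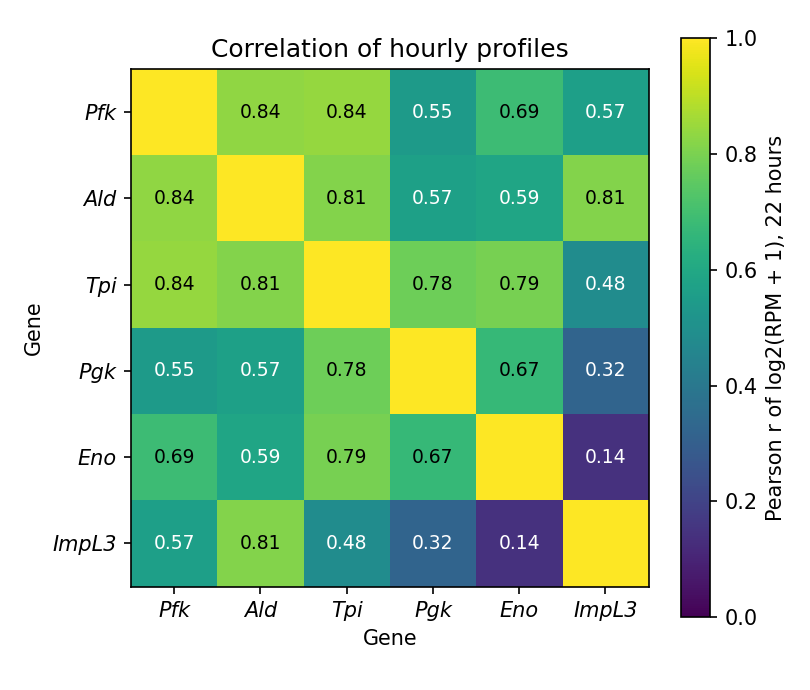
Pearson correlation of the hourly log2(RPM + 1) profiles of each pair of glycolysis genes over 22 hours, with the value printed in each cell. *Pfk*, *Ald* and *Tpi* have 0.81 to 0.84 with each other, *ImpL3* with *Ald* is also at 0.81, and *ImpL3* with *Eno* is the lowest at 0.14.

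The study sorts single promoters of *D. melanogaster*, over a longer series, into 2 classes. Housekeeping ones have less than 5-fold variation, and developmentally regulated ones have at least 60% of their signal in 8 consecutive hours. Here the thresholds were applied to whole genes of *D. simulans* over 22 hours. Of the 7074 genes that reach 10 RPM, they call 8.47% housekeeping and 53.5% regulated. None of the 6 glycolysis genes was housekeeping. The regulated genes were *Ald* with 63.4% and *Tpi* with 64.3% of their summed RPM between 14 h and 22 h, and *ImpL3* with 66.0% between 10 h and 18 h. *Pfk* was just outside, with 58.5% between 12 h and 20 h, and *Pgk* was further below, with 52.6% between 14 h and 22 h. *Eno*, with its early and late maxima, held 44.9% in its best window. The 3 of 6 regulated are near the 53.5% of all genes, so that this count does not set the 6 apart.

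The gene table and the TSC list number genes differently, and no table at hand pairs them, so the promoters of the 6 genes were found by matching reads hour by hour. For *Eno*, *ImpL3* and *Tpi* the reads of the TSCs of a *D. simulans* gene (FBgn0194293, FBgn0184850 and FBgn0025034) equalled the reads of the gene in all 22 hours. The other 3 were matched closely. The TSCs of FBgn0189683 differed from *Ald* in 0.0276% of reads. A TSC that the authors assigned to no gene, at chr2R_random:1795156-1795291 on the plus strand, differed from *Pfk* in 2.68% of reads, and the next best match in 29.0%. The TSCs of FBgn0194204 gave the reads of *Pgk* within 2.56% when a TSC upstream of them was added that the list gives to the neighbouring gene number FBgn0194203, and within 21.0% without it. All 6 matches lay on the chromosome arm that carries the *D. melanogaster* gene. Coordinates are those of the *D. simulans* genome release 1.4, counted from 1; which exon or intron they fall in was not analysed here, and neither was their sequence.

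In all, 20 TSCs were linked to the 6 genes, and each gene had a dominant promoter. *Pfk* had the single TSC above. *Tpi* started at chr3R:25627036-25627138 (minus strand), with 97.3% of its reads. *Ald* started mainly at chr3R:21931751-21931973 (minus strand, 84.4%), *Eno* at chr2L:1652552-1652612 (minus strand, 82.4%), *ImpL3* at chr3L:5749546-5749603 (minus strand, 80.7%) and *Pgk* at chr2L:2710650-2710747 (minus strand, 76.3%). These 6 promoters were 58 to 223 bp wide, with a median of 100.5 bp. TSCs with at least 1500 reads, as all 6 have, had a median width of 112 bp over the whole list.

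Of the 20 TSCs, 19 changed with hour, where 82.1% of all 20118 TSCs tested did; 10 of 10 did among those linked by equal reads. From 1-2 h to 7-8 h, 8 fell and 4 rose (12.7% and 20.7% of all TSCs), and from 7-8 h to 14-15 h, 16 rose and 2 fell (23.4% and 33.0% of all TSCs). From 14-15 h to 21-22 h, 3 rose and none fell, against 4.85% and 7.00% of all TSCs. TSCs of a gene share its RNA and are not independent of each other. The TSCs whose fitted curves fell at the middle step, against the direction of their genes, were a secondary promoter each of *Eno* and *Pgk*.

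The secondary promoter of *Eno*, at chr2L:1653271-1653357 on the minus strand, lies 658 bp upstream of the main one. It gave 21.1, 18.5 and 10.1 RPM in the first 3 hours, then 28.9 at 3-4 h, 57.5 at 4-5 h, 27.3 at 5-6 h and 18.4 at 6-7 h. From 7-8 h on it stayed between 4.44 and 21.1 RPM. The main promoter gave 361, 252 and 132 RPM in the first 3 hours, and 15.0, 16.7, 8.88 and 7.06 RPM from 3-4 h to 6-7 h. From 7-8 h to 21-22 h the main promoter lay between 35.2 and 275 RPM. The order of the 2 promoters thus turned for 4 hours: the upstream one was above the main one from 3-4 h to 6-7 h and below it in all other hours.

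As a share of the reads of *Eno*, the upstream promoter took 5.28%, 6.36% and 6.63% in the first 3 hours. It took 62.9% at 3-4 h (195 of 310 reads, 95% Wilson interval 57.4% to 68.1%), 76.7% at 4-5 h, 75.4% at 5-6 h and 67.8% at 6-7 h. It was back at 17.4% at 7-8 h and at 1.92% at 21-22 h. These 4 hours were picked after their values were seen; the lowest of their interval bounds was 57.4%, and the highest upper bound of any other hour 30.6%. In the fits, the main promoter fell by 3.20 on the log2 scale from 1-2 h to 7-8 h and rose by 2.24 to 14-15 h (limma, adjusted p = 6.38e-07 and 3.06e-06). The upstream promoter changed by −0.03 at the first step, which was not called (limma, adjusted p = 0.974), and fell by 1.08 at the next (limma, adjusted p = 0.0111). Its fitted curve smooths over single hours. The samples at 1-2 h, 7-8 h and 14-15 h themselves held 18.5, 7.91 and 13.2 RPM, with 57.5 RPM at 4-5 h in between. The fitted fall at the middle step thus runs against the samples of its end hours.

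The secondary promoter of *Pgk*, at chr2L:2712405-2712543 on the minus strand, lies 1657 bp upstream of the main one, and is the TSC that the list gives to the neighbouring gene number. It held 1.51 RPM at 0-1 h and 0.273 at 1-2 h, then 5.66, 6.82, 15.3, 19.7 and 13.5 RPM from 2-3 h to 6-7 h. The main promoter held 56.7 and 47.2 RPM in the first 2 hours and 3.98, 3.11, 8.01, 5.71 and 5.53 RPM in the next 5. In RPM the upstream promoter was above the main one from 2-3 h to 9-10 h with the exception of 7-8 h. It took 56.2%, 66.7%, 65.7%, 77.5% and 70.6% of the linked reads from 2-3 h to 6-7 h. The 7-8 h sample broke this run with 6.67% (2 of 30 reads), between 70.6% at 6-7 h and 54.6% at 8-9 h, and 52.2% followed at 9-10 h. From 10-11 h on the share was at most 19.4%, and the main promoter was at 18.0 to 65.3 RPM.

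In the fits the upstream promoter of *Pgk* rose by 1.54 from 1-2 h to 7-8 h and fell by 1.78 to 14-15 h (limma, adjusted p = 0.0321 and 0.00133). The main promoter fell by 1.97 and then rose by 2.22 (limma, adjusted p = 9.77e-04 and 7.97e-06). At 1-2 h, 7-8 h and 14-15 h the upstream promoter itself held 0.273, 0.791 and 1.76 RPM, on 1, 2 and 2 reads. Its fitted fall thus comes from the hours around these samples and runs against the samples themselves. The gene as a whole, which adds these promoters, had the middle step of 0.98 given above. The share of the upstream promoter rests on the close match described above.

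**Figure D4:**
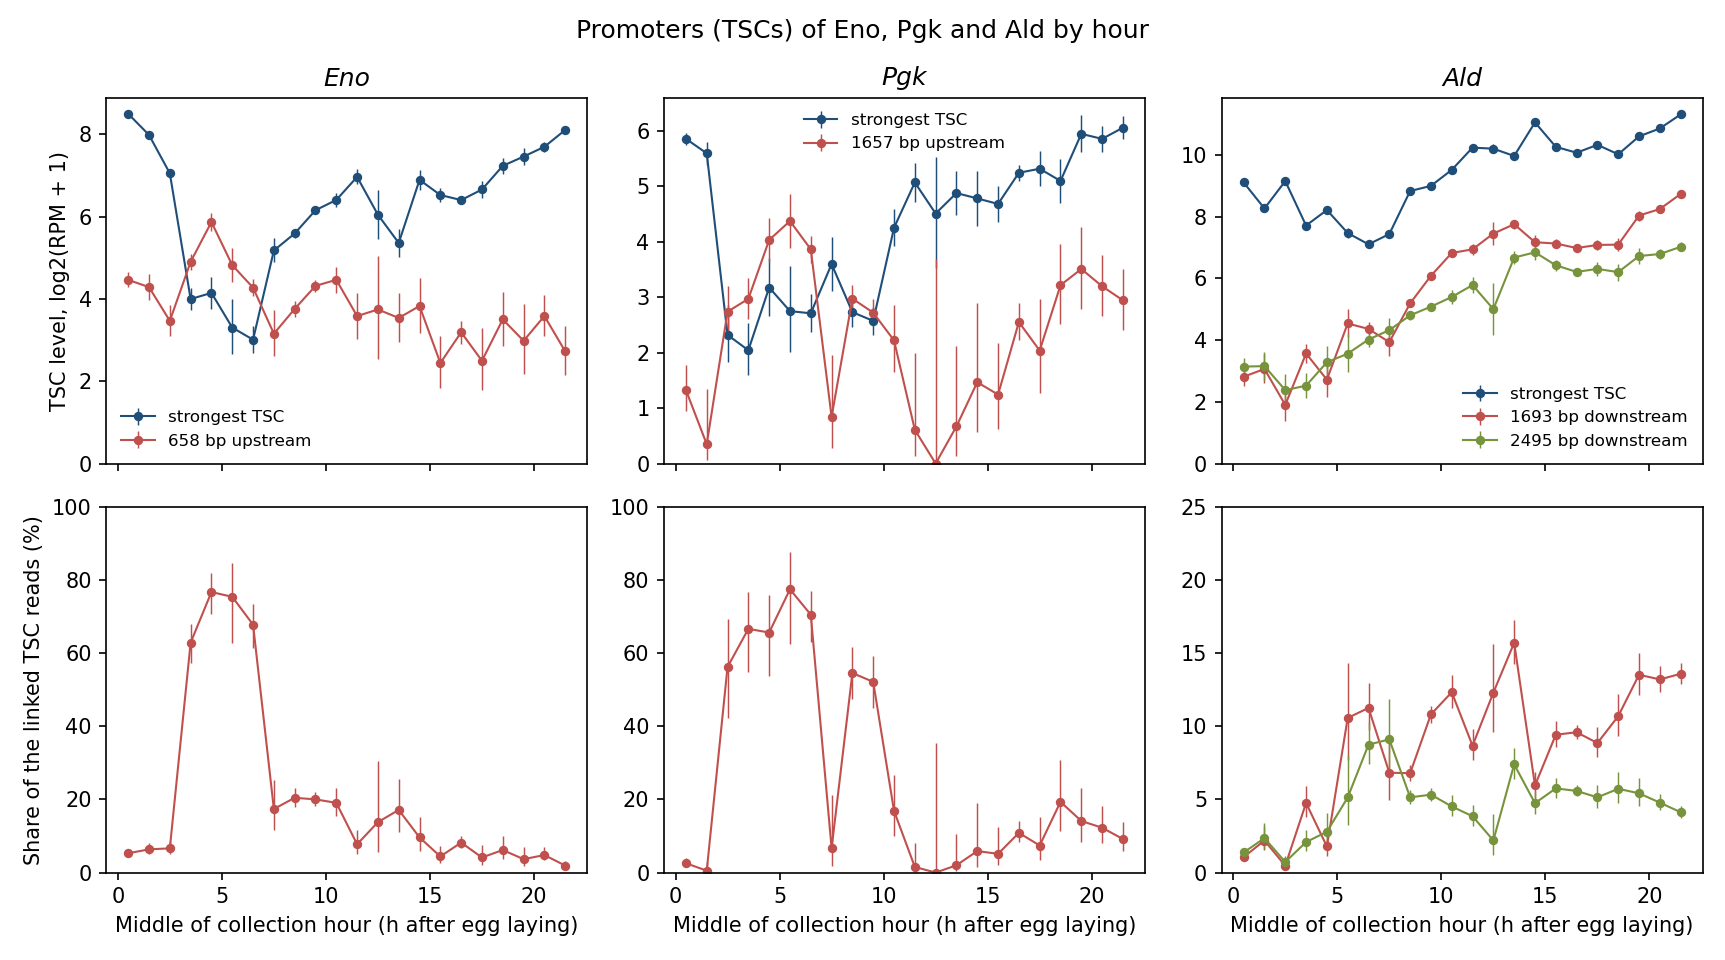
Level of the main and secondary promoters of *Eno*, *Pgk* and *Ald* on the log2(RPM + 1) scale (top) and share of the secondary promoters in the linked reads in percent (bottom), against the middle of the collection hour, with 95% Wilson intervals; the share axis for *Ald* ends at 25%. The upstream promoter of *Eno* takes 62.9% to 76.7% of reads from 3-4 h to 6-7 h, and that of *Pgk* 56.2% to 77.5% from 2-3 h to 6-7 h.

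In *Ald* the secondary TSCs with the most reads lay downstream of the main one, in place of upstream as in *Eno* and *Pgk*. The TSC at chr3R:21930023-21930057, 1693 bp downstream, held 2.73 to 22.2 RPM in the first 8 hours and 424 RPM at 21-22 h. Its share of the reads of *Ald* was between 0.470% and 2.19% in the first 3 hours. It was 4.76% at 3-4 h, 1.79% at 4-5 h and between 5.96% and 15.7% from 5-6 h on. The TSC at chr3R:21929225-21929255, 2495 bp downstream, held 4.19 to 19.0 RPM in the first 8 hours and 129 RPM at the end. Both rose at the first step, by 1.97 and 1.29 (limma, adjusted p = 4.86e-05 and 0.00239), and at the middle step, by 2.39 and 2.05 (limma, adjusted p = 4.24e-08 and 1.59e-07). The main promoter of *Ald* had −0.72 at the first step, not called (limma, adjusted p = 0.0765), and rose by 2.20 at the middle step (limma, adjusted p = 2.66e-08).

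Genes around glycolysis were taken from lists of *D. melanogaster* FlyBase numbers and are given as counts, since no table at hand names them. Of 28 such genes 20 were in the table and 19 were tested; all 20 could be linked to TSCs, and each lay on the arm of the *D. melanogaster* gene. From 7-8 h to 14-15 h, 13 of the 19 rose and 2 fell, with a median of 0.92, where 28.2% of all genes rose and 38.8% fell. The 9 tested genes of pyruvate oxidation and the citric acid cycle, which oxidise the pyruvate that glycolysis makes, all rose, by 0.59 to 3.04. Of the 8 genes of sugar storage and sugar entry (glycogen, trehalose and related steps) 4 rose and 1 fell. Of 2 listed regulators of the pathway 1 fell and none rose, with a median of −0.53. From 1-2 h to 7-8 h, 3 of the 19 rose and 8 fell, against 19.8% and 18.4% of all genes. Of the 9 genes of pyruvate oxidation and the citric acid cycle 5 fell and none rose, of the 8 genes of sugar storage and entry 3 fell and 3 rose, and neither regulator was called. From 14-15 h to 21-22 h, 3 of the 19 rose and none fell, against 6.46% and 9.95% of all genes. These lists were not tested as lists.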

How the data were processed

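RAMPAGE was run on 22 whole-embryo samples, 1 per hour and without replicates. Per the study's methods, the authors mapped reads with STAR to the *D. simulans* genome release 1.4 and called TSCs on the pooled series. They deposited RPM values for each TSC and for each gene. TSC values were scaled to the total reads in TSCs of each sample, and gene values to a slightly larger total. The TSC list carries a whole-number score that the authors gave each peak, and only the positions were used here. A deposited table of aligned values (scores smoothed for comparison between species) was not used.

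RPM divided by the value of 1 read gave whole reads (tolerance 0.0001 reads) for 100.0% of values in both tables. Log2(RPM + 1) was fitted with limma 3.58.1 (trend) in R 4.3.3, because the unit is RPM, and edgeR 4.0.16 on recovered reads was an alternative, as were TMM and DESeq2 1.42.0 scaling, pseudocounts of 0.5 and 5, no filter or 10 RPM, splines with 3 or 5 degrees of freedom, and leaving out each hour. edgeR called 7794 of 8249 genes and limma 7625. Leaving out the 2 shallowest samples together and keeping only promoters linked by equal reads were chosen after seeing the data. A log2(RPM + 1) change understates the change of weak genes. The residual error measures scatter around the curve, which may be technical. Intervals of levels and shares are 95% Wilson intervals. Like the floor of 3 reads, they cover counting error only, since duplicate reads are not marked. Intervals of fitted changes are 95% intervals from the limma fit and rest on the scatter around the curve. Fits were tested on simulated data. Numbers and figures were made with Python 3.11.15 and matplotlib 3.10.9.

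Genes and TSCs were named by a rule that takes all 10 listed members and, by number only, the 2 other genes nearest to their mean profile. The members, the lists and the hours compared were chosen with earlier results of these data known.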

Additional observations from a re-analysis of the deposited data

How the results depend on the processing

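The 6 of 6 genes changing with hour and the 6 of 6 higher at 14-15 h than at 7-8 h were kept under every alternative run, with 3 to 4 lower and 0 to 1 higher at 7-8 h than at 1-2 h when an hour was left out. The count of genes higher at 21-22 h than at 14-15 h was least stable. It was 2, but 3 with TMM and with DESeq2 scaling, between 1 and 2 when an hour was left out, 1 with a pseudocount of 0.5, 1 without the 2 shallowest samples, and 0 with a spline of 3 degrees of freedom, which called 1 gene lower instead of 0. *Tpi* had 1.52 with the pseudocount of 0.5 and 1.33 without the 2 shallowest samples (limma, adjusted p = 0.0695 and 0.0731). The uncalled change of *ImpL3* at that step, 0.14, was −0.88 with the spline of 3 degrees of freedom and ran from −0.19 to 0.30 when an hour was left out. The promoters changing with hour numbered 19, between 16 and 19 when an hour was left out, and 10 of 10 when those linked by a close match were left out, which only shortens the list. The median correlation of the members was 0.67, between 0.60 and 0.71 when an hour was left out, and 0.56 on the RPM scale. Of the 576 values of single genes under alternatives, 540 kept their direction and their side of the threshold, 25 lost the call, 5 gained one and 6 changed sign, all of them those of *ImpL3* at the last step. The cause of these shifts was not tested.

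No paired analysis was possible because each hour has 1 sample. The share of *Gapdh2* in the *Gapdh* pair was not run, as neither gene was analysed here. Depth limits the low hours of *Tpi* and *ImpL3*, which rest on 0 to 10 reads in some samples, and the 12-13 h sample, in which a read is worth 3.07 RPM.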
